A study of Mus musculus with 6 samples.

Results

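The 10 genes described here are regulators and effectors of mitochondrial and thermogenic gene expression in fat: *Ppargc1a*, *Ppargc1b*, *Esrra*, *Prdm16*, *Ebf2*, *Ucp1*, *Dio2*, *Cidea*, *Elovl3* and *Ucp2*. They were taken by gene symbol from a count table of 35122 genes, and all 10 symbols had a row. Brown and beige adipocytes make heat when UCP1 lets protons back across the inner mitochondrial membrane, and noradrenaline and thyroid hormone switch this program on. The PGC-1 coactivators, acting with ERR alpha and other nuclear receptors, raise the number and the oxidative capacity of mitochondria, whereas PRDM16 and EBF2 set brown and beige identity. White epididymal fat, the depot sampled here, makes little UCP1 in mice that are not exposed to cold.

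RNA was sequenced from epididymal fat of 6 male C57BL/6 mice, 1 library for each mouse, after collagenase digestion and collection of the adipocytes that float. The control group held 3 PU.1 fl/fl mice, and the aPU.1KO group held 3 AdipoqCre PU.1 fl/fl mice, in which Cre recombinase driven by adiponectin sequences removes PU.1, an ETS transcription factor best known from macrophages, in cells that express adiponectin. Both groups carried loxP sites around exon 5 of *Spi1*, the gene of PU.1, ate standard chow, were kept at about 75°F, and were 10 to 11 months old by the labels, although the text of the study describes the sequenced mice as older. The comparison of the groups asked whether loss of PU.1 in adipocytes changed the expression of these genes. Mice are called 1 to 3 within a group, numbers that only name them and pair nothing.

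Total counts ran from 20550252 to 23392407 in 4 of the libraries, with 24310144 in aPU.1KO mouse 2 and 69283842 in control mouse 1. *Spi1* stood at 24.3, 6.35 and 26.7 CPM (counts per 1000000 counts of the library, after TMM scaling of its size) in the controls. It was 3.20, 1.22 and 4.17 CPM in the aPU.1KO mice, so control mouse 2 lay closer to these than to the other controls. The text of the study reports that some PU.1 remained in aPU.1KO adipocytes. The 16 macrophage markers summed to 2276 and 2210 CPM in control mice 1 and 3, to 570 CPM in control mouse 2, and to between 230 and 396 CPM in the aPU.1KO mice. All 16 of these markers fell with an unadjusted p below 0.05, 15 of them without overlap of the groups, and none was at 0 in any library. The 12 adipocyte markers summed to between 55393 and 64934 CPM in controls and to between 72020 and 84253 CPM in aPU.1KO mice, with 9 higher and 1 lower at that threshold. Leaving out control mouse 1 turned the 9 into 2, control mouse 3 into 5, and aPU.1KO mouse 1 or 2 into 3, and the 1 lower became 0 when any control or aPU.1KO mouse 1 was left out. On all mice the other settings gave 5 to 11 higher, the fewest with edgeR's non-legacy fit, which also had 0 lower. Of 12 stromal progenitor markers 8 were lower and none higher. In such bulk samples fewer cells of a type and less RNA per cell cannot be told apart.

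*Ucp2*, *Dio2* and *Prdm16* were the members with lower values in every aPU.1KO mouse than in any control. The 250 bases before their RefSeq start sites (GRCm38.p6) are shown because these 3 members moved in the same direction. They are read 5′ to 3′ on the strand of each gene, with the cAMP response element TGACGTCA or its 5-base core CGTCA in capitals. The *Ucp2* sequence is chr7:100493108-100493357 on the plus strand, that of *Dio2* is chr12:90739039-90739288 on the minus strand, and that of *Prdm16* is chr4:154636874-154637123 on the minus strand.
Ucp2: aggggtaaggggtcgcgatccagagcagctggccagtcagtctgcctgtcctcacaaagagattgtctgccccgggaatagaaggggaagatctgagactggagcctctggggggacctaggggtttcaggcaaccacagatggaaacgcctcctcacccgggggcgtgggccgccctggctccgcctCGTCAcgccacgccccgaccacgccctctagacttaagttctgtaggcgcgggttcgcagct
Dio2: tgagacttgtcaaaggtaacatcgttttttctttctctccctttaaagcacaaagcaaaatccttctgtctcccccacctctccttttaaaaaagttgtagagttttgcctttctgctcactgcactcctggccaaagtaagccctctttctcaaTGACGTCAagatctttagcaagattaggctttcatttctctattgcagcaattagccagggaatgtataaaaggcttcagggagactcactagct
Prdm16: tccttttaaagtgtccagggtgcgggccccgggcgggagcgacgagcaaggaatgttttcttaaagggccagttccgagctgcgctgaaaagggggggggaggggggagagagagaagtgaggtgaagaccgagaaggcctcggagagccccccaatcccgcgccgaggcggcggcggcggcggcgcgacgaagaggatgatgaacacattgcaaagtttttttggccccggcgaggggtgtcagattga
The string GAGGAA, searched for PU.1, and the string AAGGTCA, searched for ERR, did not occur on either strand in these 3 sequences. Nor did they occur in the same window of *Ppargc1a*, *Esrra* and *Ucp1*. Only exact matches to these strings were counted, and shorter or variant forms of either site were not searched. The absence of the strings therefore does not show that PU.1 or ERR sites were lacking. Of 32851 mouse promoters of that length, 23.3% held GAGGAA and 4.08% held AAGGTCA. The full cAMP response element, present in 1.55% of all promoters, was found in *Dio2* alone of the 6 member promoters, its last base 88 bases before the start. The core, present in 17.8% on either strand, was found in *Ppargc1a*, *Ucp1*, *Dio2* (inside the full element) and *Ucp2*, but not in *Esrra* or *Prdm16*. Promoters of the other 4 members were not used here.

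Across the members, 3 were below controls in aPU.1KO mice with an unadjusted p less than 0.05, none was above, 5 did not pass, and 2 (*Ucp1* and *Elovl3*) had too few counts to be tested. When edgeR's quasi-likelihood p-values were adjusted by Benjamini-Hochberg over 13925 genes, no member was called at an adjusted p under 0.05, as against 0.237% of all genes tested. At the unadjusted threshold 13.7% of all genes tested were lower and 11.9% higher. The groups did not overlap in 3 members, all lower, against 15.5% of all genes tested that were lower without overlap and 16.7% that were higher. DESeq2 called 2 members lower, *Ucp2* and *Dio2*, at an adjusted p under 0.05, beside 7.78% of the 16280 genes to which it gave an adjusted p, and called 0 higher, beside 3.69%.

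**Figure D1:**
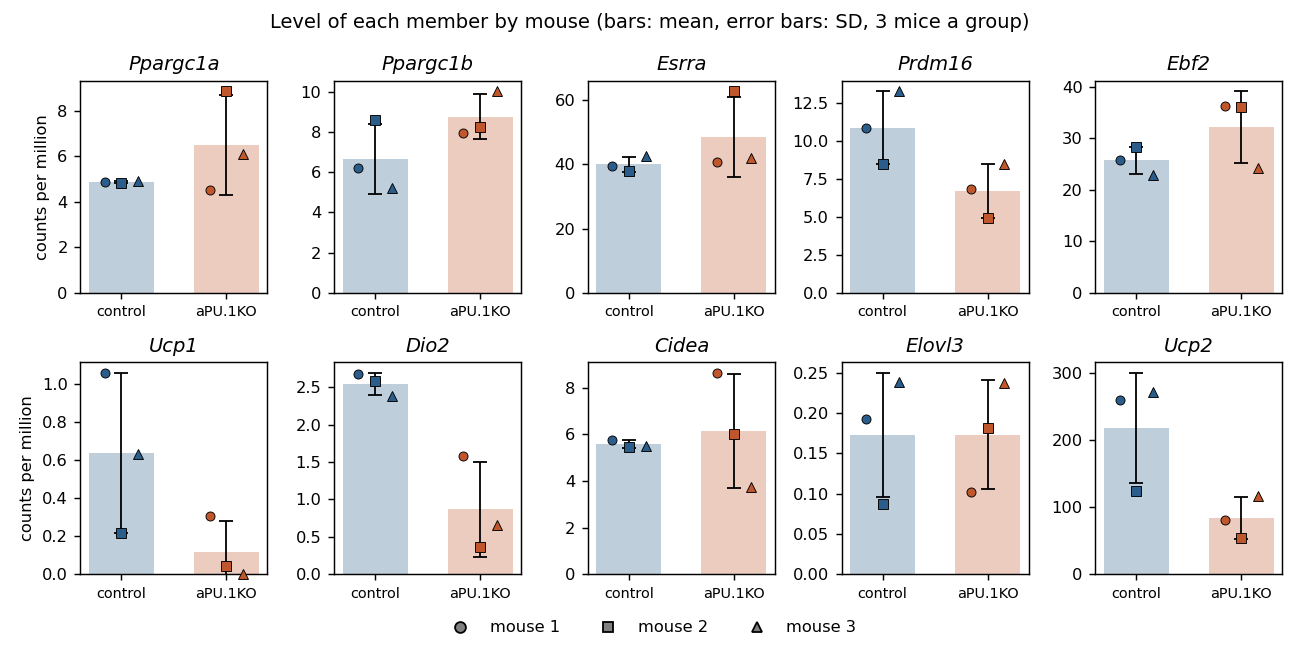
CPM (y axis, linear, from 0) of the 10 members in 3 control and 3 aPU.1KO mice. Bars are group means, error bars are SD (cut at 0), and marker shapes name the mice within a group. *Ucp2*, *Dio2* and *Prdm16* are the panels in which all aPU.1KO points lie under all control points.

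Neither the PGC-1 coactivators nor their receptor partner passed the test in either direction. *Ppargc1a* (chromosome 5, 51454250 to 51567726, minus strand, GRCm38) encodes PGC-1 alpha, the coactivator that cold and adrenergic signals induce. It was measured at 4.85, 4.82 and 4.92 CPM in controls and at 4.52, 8.86 and 6.11 CPM in aPU.1KO mice. The controls lay close together, and 1 aPU.1KO mouse lay below them and 2 above. Means were 4.86 ± 0.052 CPM (SD, n = 3) and 6.50 ± 2.19 CPM (SD, n = 3), a log2 fold change of 0.42 (SE 0.25, adjusted p = 0.335, edgeR). The log2 fold change of *Ppargc1a* was 0.13 once aPU.1KO mouse 2 was left out, and 0.61 (unadjusted p = 0.0248, adjusted p = 0.202) once aPU.1KO mouse 1 was.

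*Ppargc1b*, on chromosome 18, encodes PGC-1 beta, which maintains basal mitochondrial content. Its values were 6.22, 8.58 and 5.195 CPM in controls and 7.98, 8.27 and 10.04 CPM in aPU.1KO mice, so that control mouse 2 fell inside the aPU.1KO range. The log2 fold change was 0.40 (SE 0.22, 95% interval -0.11 to 0.91, adjusted p = 0.293, edgeR). With control mouse 2, whose macrophage markers were low, left out, it was 0.60 with an unadjusted p of 0.0168 and an adjusted p of 0.106.

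*Esrra* (chromosome 19, 6910977 to 6921813, minus strand) encodes ERR alpha, the orphan nuclear receptor through which PGC-1 proteins reach many mitochondrial genes. It stood at 39.4, 38.0 and 42.7 CPM in controls and at 40.7, 62.8 and 41.9 CPM in aPU.1KO mice. A single aPU.1KO mouse, number 2, was above the controls, and the other 2 were within their range. The log2 fold change was 0.28 (SE 0.17, adjusted p = 0.357, edgeR) with all mice, and 0.04 without aPU.1KO mouse 2. The exons of *Esrra* share 73 bases with *Trmt112* on the other strand, and the sources used here do not say whether the counting used strand.

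Of the fate factors, *Prdm16* was lower and *Ebf2* was not. *Prdm16* (chromosome 4, 154316125 to 154636873, minus strand), the coregulator that turns on brown fat genes and holds muscle and white fat genes down, was measured at 10.9, 8.49 and 13.3 CPM in controls. In aPU.1KO mice it was 6.81, 4.93 and 8.48 CPM, with the highest aPU.1KO mouse just under the lowest control. The means were 10.9 ± 2.40 and 6.74 ± 1.78 CPM (SD, n = 3 each), a log2 fold change of -0.69 (SE 0.25, 95% interval -1.28 to -0.10). The adjusted p was 0.147 by edgeR and 0.0749 by DESeq2, so that the difference did not pass after adjustment. The unadjusted p of 0.0281 rose above the threshold without control mouse 1 (0.0609), control mouse 3 (0.0979), aPU.1KO mouse 1 (0.0671) or aPU.1KO mouse 2 (0.0674).

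*Ebf2* (chromosome 14, 67233292 to 67430918, plus strand) encodes the factor that marks brown and beige precursors and opens chromatin at brown fat genes. Its values were 25.8, 28.3 and 23.0 CPM in controls and 36.3, 36.1 and 24.2 CPM in aPU.1KO mice. The first 2 of these 3 mice lay above every control, and aPU.1KO mouse 3 lay among the controls. The log2 fold change was 0.33 (SE 0.17, adjusted p = 0.285, edgeR), and 0.50 with aPU.1KO mouse 3 left out (unadjusted p = 0.00539, adjusted p = 0.0865). *Ebf2* is also expressed in adipocyte precursors. The stromal progenitor markers summed to between 1573 and 2088 CPM in controls and between 841 and 1169 CPM in aPU.1KO mice, and their part in the *Ebf2* values was not tested.

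Among the effectors of heat production, *Dio2* (chromosome 12, 90724552 to 90738438, minus strand) had the largest fold change of the members tested with all mice. The log2 fold change of *Ucp2* was larger without control mouse 2 (-1.67 against -1.57) and without aPU.1KO mouse 3 (-1.69 against -1.41). *Dio2* encodes the type 2 deiodinase, which turns thyroxine into active triiodothyronine inside the cell. Counts were 194, 59 and 60 in controls, or 2.67, 2.58 and 2.38 CPM. They were 31, 8 and 14 in aPU.1KO mice, or 1.58, 0.362 and 0.663 CPM. The controls were nearly alike, control mouse 2 included, and every aPU.1KO mouse was lower.

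The mean of *Dio2* was 2.54 ± 0.150 CPM in controls and 0.867 ± 0.632 CPM in aPU.1KO mice (SD, n = 3 each). This is a log2 fold change of -1.57 (SE 0.49, 95% interval -2.72 to -0.41), and the adjusted p was 0.115 in edgeR and 0.0280 in DESeq2. Leaving out 1 mouse at a time moved it between -2.32 and -1.19. The adjusted p of edgeR without control mouse 2 was 0.147, and the unadjusted p, 0.0151 with all mice, was 0.0546 without aPU.1KO mouse 3.

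*Ucp1* (chromosome 8, 83290352 to 83298452, plus strand), the uncoupling protein of brown and beige fat, was barely detected. It had 77, 5 and 16 counts in controls and 6, 1 and 0 counts in aPU.1KO mice, which is 1.06, 0.219 and 0.635 CPM against 0.305, 0.0452 and 0 CPM. Control mouse 2 fell below aPU.1KO mouse 1, so the groups overlapped. In total, 98 counts of 115446963 came from the controls, 77 of them from the deepest library, and 7 counts of 65799423 from the aPU.1KO mice. A library of these depths that held 0 counts would allow up to between 0.0433 and 0.146 CPM, which 3 counts make, and these limits cover counting error only.

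The exact two-sided permutation test of *Ucp1* on log2 CPM gave p = 0.2, where 3 mice against 3 cannot go below 0.1. DESeq2, which keeps genes with few counts, put the log2 fold change at -2.50, with an unadjusted p of 0.0316 and an adjusted p of 0.156.

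*Cidea*, on chromosome 18, encodes a lipid droplet protein that is high in brown and beige fat and helps droplets exchange lipid. It was 5.76, 5.47 and 5.51 CPM in controls and 8.64, 6.01 and 3.74 CPM in aPU.1KO mice. The aPU.1KO mice lay on both sides of a tight control range. The log2 fold change of 0.13 (SE 0.29, adjusted p = 0.803, edgeR) turned to -0.21 without aPU.1KO mouse 1.

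*Elovl3* (chromosome 19, 46131897 to 46135694, plus strand), an elongase of very long-chain fatty acids that cold induces in brown fat, had 14, 2 and 6 counts in controls and 2, 4 and 5 in aPU.1KO mice. The means were 0.173 ± 0.077 and 0.173 ± 0.068 CPM (SD, n = 3 each), and the exact two-sided permutation test gave p = 1.0. Every library held 14 counts or fewer.

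The control libraries also held transcripts that hepatocytes are known for, several at levels like those of *Dio2* and *Ucp1*. Of 10 hepatocyte markers 9 fell in aPU.1KO mice (unadjusted p below 0.05), beside 13.7% of all genes tested. All 9 did so without overlap, beside 15.5%. At an adjusted p under 0.05 edgeR called 6 of the 10, and 33 genes in all. Under the other settings on all mice 1 to 9 were lower and 0 to 1 higher, and with 1 mouse left out 9 and 0 to 1. *Alb* fell only from 34.7 ± 10.3 to 19.0 ± 3.02 CPM (SD, n = 3 each). *Apob*, the structural protein of lipoproteins, was measured at 1.31, 1.36 and 1.39 CPM in controls and was at 0 counts in every aPU.1KO library, and *Apoa1*, which encodes the main protein of high-density lipoprotein, lay between 3.37 and 4.38 CPM against 0 to 0.136 CPM. The tenth, *Cyp2e1*, a cytochrome P450 that fat also expresses, lay between 142 and 928 CPM in controls and between 711 and 3156 CPM in aPU.1KO mice. The part of this signal in the values of *Dio2* and *Ucp1* was not tested.

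**Figure D2:**
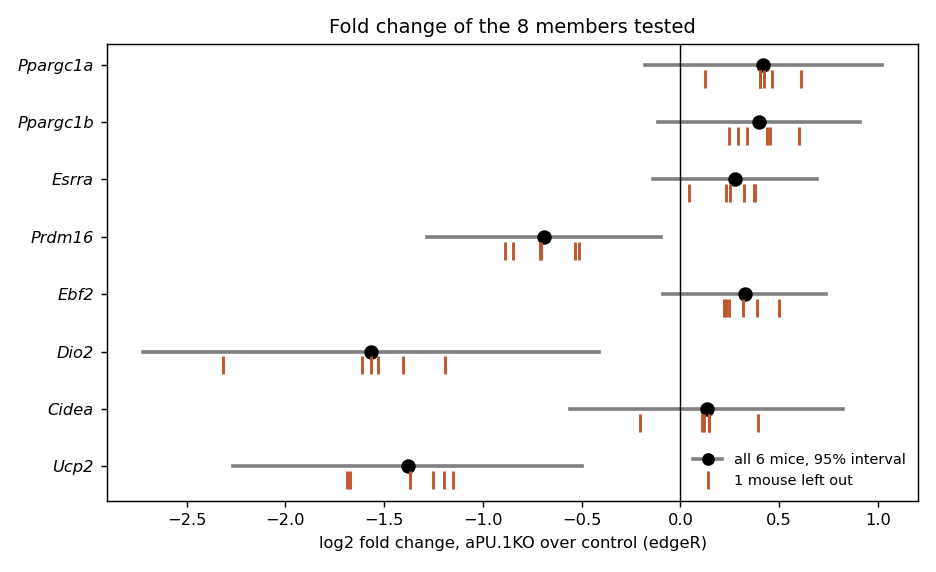
Log2 fold change of aPU.1KO over control mice (x axis) of the 8 members tested by edgeR, with 95% intervals as grey lines and the values with 1 mouse left out as ticks. *Prdm16*, *Dio2* and *Ucp2* keep their intervals under 0, whereas the ticks of *Cidea* lie on both sides of 0.

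*Ucp2* (chromosome 7, 100493337 to 100502020, plus strand) had the highest level of the 10 members and the smallest adjusted p among those tested. UCP2 is a mitochondrial carrier related to UCP1 that macrophages and other immune cells express strongly, and it is not regarded as a heat producer. Its values were 259.7, 124.1 and 272.3 CPM in controls and 81.1, 54.6 and 116.2 CPM in aPU.1KO mice. The lowest control, mouse 2, was only slightly above the highest aPU.1KO mouse. Means were 218.7 ± 82.1 and 84.0 ± 30.9 CPM (SD, n = 3 each).

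*Ucp2* thus had a log2 fold change of -1.38 (SE 0.37, 95% interval -2.26 to -0.50), and its adjusted p was 0.0945 in edgeR and 0.00207 in DESeq2. Leaving out control mouse 2 gave -1.67 and an edgeR adjusted p of 0.0261, whereas leaving out any other mouse kept the adjusted p above 0.05. The exons of *Ucp2* share 305 bases with *Dnajb13* on the other strand, a gene with 3071 counts over all libraries, which could exchange reads with it if the counting ignored strand.

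The mice with high *Ucp2* were mostly those with high macrophage markers. Control mice 1 and 3 had the 2 highest values of both, control mouse 2 the third highest of both, and aPU.1KO mouse 2 the lowest of both. The order turned between aPU.1KO mouse 3 (*Ucp2* 116.2 CPM, markers 373 CPM) and aPU.1KO mouse 1 (81.1 and 396 CPM). The log2 fold change of *Ucp2* was -1.38, and the median of the 16 markers was -2.355. *Dio2* was nearly alike in the controls (2.67, 2.58 and 2.38 CPM), whereas their markers summed to 2276, 570 and 2210 CPM. Among the aPU.1KO mice *Dio2* ran in the order of the markers. In *Prdm16*, control mouse 2 was the lowest control. The part that macrophage RNA had in the differences of *Ucp2*, *Dio2* and *Prdm16* was not tested.

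**Figure D3:**
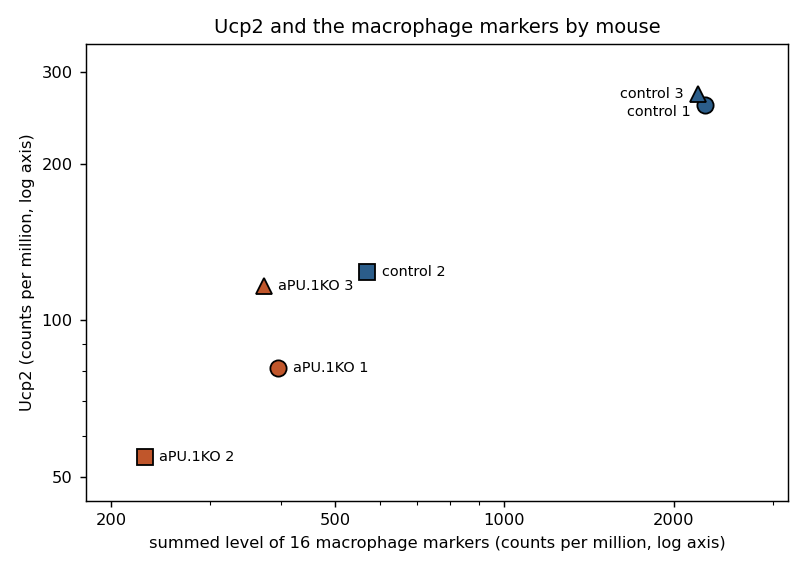
*Ucp2* (y axis, CPM, log axis) against the sum of 16 macrophage markers (x axis, CPM, log axis) in the 6 mice. Control mice 1 and 3 lie at the upper right at 2276 and 2210 CPM of the markers, and control mouse 2 lies at 570 CPM, next to the aPU.1KO mice.

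Levels of different genes were compared as CPM per kb of exon, ordered by the median of the 3 mice. In controls the order was *Ucp2* (median 37.2 CPM per kb), *Esrra* (8.97), *Cidea* (4.94), *Ebf2* (3.73), *Ppargc1b* (1.56), *Prdm16* (1.17), *Ppargc1a* (0.735), *Dio2* (0.444), *Ucp1* (0.388) and *Elovl3* (0.0976). The ranges of *Ppargc1b* and *Prdm16* overlapped, as did those of *Dio2* and *Ucp1*, and the other neighbours in this order lay apart. The mRNA of ERR alpha was thus well above those of its PGC-1 coactivators on this scale, and *Ucp1* was near the bottom.

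In aPU.1KO mice *Ucp2* (median 11.6 CPM per kb) no longer stood apart from *Esrra* (9.56), and *Prdm16* (0.731) came after *Ppargc1a* (0.927) with overlapping ranges. *Cidea* (5.39) overlapped *Ebf2* (5.21), and *Ppargc1b* (2.07) stood apart from both its neighbours. *Dio2* (0.114), *Elovl3* (0.0916) and *Ucp1* (0.0276) overlapped at the bottom. Dividing by the longest transcript in place of all exons exchanged *Cidea* and *Ebf2* in both groups and left the other ranks as they were.

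**Figure D4:**
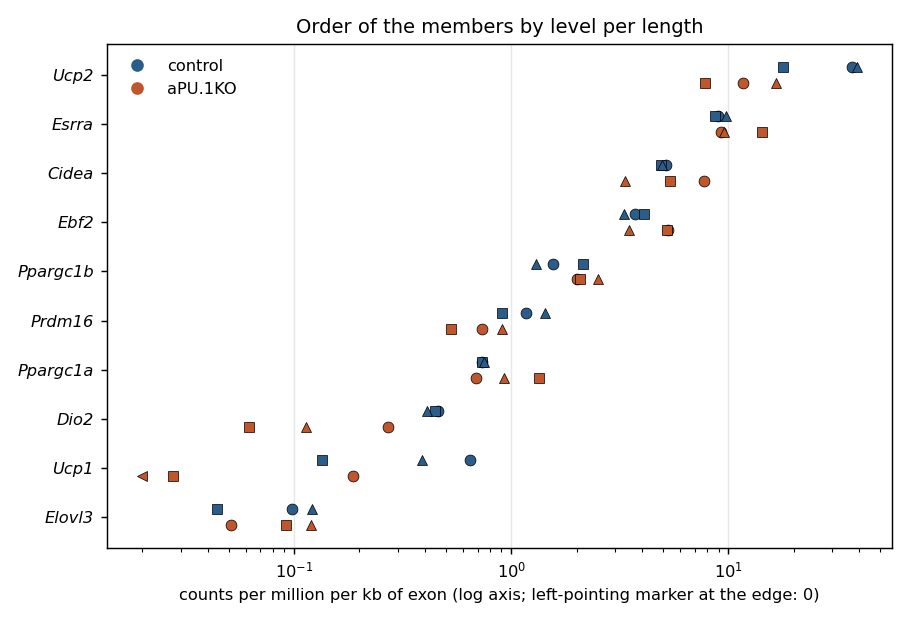
CPM per kb of exon (x axis, log axis) of the 10 members in each mouse, ordered by the control median, with control mice above and aPU.1KO mice below each line. *Ucp2* runs down from 39.0 in the highest control to 7.81 in the lowest aPU.1KO mouse, and *Ucp1* of aPU.1KO mouse 3, at 0, is drawn at the left edge.

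The genes whose pattern over the 6 libraries was nearest to a member were found by the root mean square difference of log2 CPM, each gene centred on its mean, among 11896 genes. For *Ucp2* these were *Arhgef10l* (difference 0.104) and *Fcgr2b* (0.112), as against a median of 0.862 over all genes. *Fcgr2b*, an inhibitory Fc receptor of macrophages and B cells, had 19.6, 9.94 and 18.005 CPM in controls and 6.00, 4.25 and 7.63 CPM in aPU.1KO mice. For *Ppargc1a* they were *Bcl7c* (0.0625) and *Paqr4* (0.0785), with a median of 0.362. For *Ppargc1b* the nearest was *Lypd6b* (0.0601), with a median of 0.341.

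Related genes were read in 6 lists, in which no gene had an adjusted p under 0.05 in edgeR, and their counts stand beside the 11.9% of all genes tested that were higher and the 13.7% that were lower. Of 20 mitochondrial targets of PGC-1 and ERR, all tested, 12 were higher in aPU.1KO mice by unadjusted p and none was lower, and the median log2 fold change was 0.38, against 0.01 over all genes tested. *Cycs*, which encodes cytochrome c, had 133.9 ± 2.23 CPM in controls and 181.6 ± 16.9 CPM in aPU.1KO mice (log2 fold change 0.44, SE 0.09, unadjusted p = 0.00174, adjusted p = 0.0764). *Sdhb*, a subunit of succinate dehydrogenase, had 96.3 ± 2.56 and 152.4 ± 37.0 CPM (log2 fold change 0.66, SE 0.17). *Cox5b*, a subunit of cytochrome c oxidase, had 95.3 ± 3.84 and 134.6 ± 27.1 CPM (log2 fold change 0.50, SE 0.15). DESeq2 called 4 of the 20 higher and none lower.

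The count of 12 mitochondrial targets changed with the mice used. Leaving out control mouse 1 gave 3, control mouse 2 gave 7 and control mouse 3 gave 6. Leaving out aPU.1KO mouse 1 or 2 gave 5, and aPU.1KO mouse 3 gave 14. The share of all genes that were higher moved as well, to 4.15%, 11.0% and 7.17% without control mouse 1, 2 or 3 and to 8.83%, 10.0% and 13.3% without aPU.1KO mouse 1, 2 or 3. Of the 20, 1 target was lower with control mouse 2 left out. The adipocyte markers moved in the same direction, and the part that the makeup of the fraction had in these differences was not tested.

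Of 24 relatives, partners and regulators of the PGC-1 proteins, 22 were tested. By unadjusted p 8 of these were higher and 1 was lower (DESeq2 called 2 and 1), with a median log2 fold change of 0.14. *Lpin1*, a phosphatidate phosphatase that also acts as a coactivator with PGC-1 alpha, had 436.5 ± 52.0 and 594.3 ± 68.0 CPM (log2 fold change 0.45, SE 0.13). *Prkaa2*, a catalytic subunit of AMP-activated protein kinase, had 18.5 ± 3.01 and 25.8 ± 2.51 CPM (log2 fold change 0.48, SE 0.14). The gene that was lower was *Ncoa3*, a nuclear receptor coactivator, with 36.8 ± 4.01 and 27.4 ± 2.59 CPM (log2 fold change -0.43, SE 0.11). The count of 8 fell to 2 without control mouse 1, to 4 without control mouse 3 and to 5 without aPU.1KO mouse 1 or 2, and the count of 1 lower became 2 without aPU.1KO mouse 2 and 3 without aPU.1KO mouse 3. It was also 2 under each of the other settings on all mice save RLE factors. *Esrrg*, the ERR gamma gene, stood just outside it, lower without overlap (log2 fold change -0.71, SE 0.30, unadjusted p = 0.0545).

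Among brown and beige fat genes, 28 of the 35 in the table were tested, with 2 higher and 3 lower by unadjusted p, 23 others, and a median log2 fold change of 0.13. DESeq2 called 2 lower, *Epsti1* and *Slc27a2*, a fatty acid transporter and acyl-CoA synthetase also high in liver, which edgeR did not test and which had 0.386, 0.394 and 0.436 CPM in controls and 0 counts in every aPU.1KO library. *Epsti1*, which is also induced by interferon, had 4.35 ± 1.94 and 1.21 ± 0.474 CPM (log2 fold change -1.86, SE 0.45), with its lowest control in mouse 2. *Acot11*, a cold-induced acyl-CoA thioesterase, had 3.24 ± 0.629 and 1.96 ± 0.277 CPM (log2 fold change -0.73, SE 0.24). *Letmd1*, a mitochondrial protein needed for brown fat function, had 36.3 ± 0.625 and 45.6 ± 5.44 CPM (log2 fold change 0.33, SE 0.10). The 2 higher became 1 when control mouse 1 and 6 when aPU.1KO mouse 3 was left out, and the 3 lower became 1 when control mouse 1 or 3 and 7 when aPU.1KO mouse 3 was. The 3 lower were 6 without a filter, and 5 both with at least 10 counts in every library and by the unadjusted p of DESeq2.

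Of 10 carriers related to the uncoupling proteins, 4 were higher by unadjusted p (2 called by DESeq2) and 6 did not pass. Log2 fold changes were positive in 6 and negative in 4, with a median of 0.17. *Ucp3*, the uncoupling protein best known from muscle and the neighbour of *Ucp2* on chromosome 7, had 25.8, 28.7 and 29.0 CPM in controls and 38.0, 36.9 and 44.3 CPM in aPU.1KO mice. All aPU.1KO mice were above all controls, with a log2 fold change of 0.51 (SE 0.10, unadjusted p = 0.0016, adjusted p = 0.0764, edgeR) and an adjusted p of 0.00403 in DESeq2. *Slc25a4*, an ADP/ATP translocase, had a log2 fold change of 0.32 (SE 0.09), and *Slc25a44*, a mitochondrial carrier of branched-chain amino acids, had 0.27 (SE 0.08). The count of 4 was 1 without control mouse 1, and 1 carrier was lower once aPU.1KO mouse 3 was left out.

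Genes of heat production without UCP1, mostly of creatine and calcium cycling and with *Pm20d1*, an enzyme of N-acyl amino acids, numbered 13, of which 9 were tested. All 9 had a negative log2 fold change (median -0.38), and 3 were lower by unadjusted p (2 called by DESeq2). *Gatm*, the first enzyme of creatine synthesis, had 6.78, 3.11 and 6.42 CPM in controls and 1.78, 1.08 and 2.13 CPM in aPU.1KO mice (log2 fold change -1.72, SE 0.38). *Ryr1*, the calcium release channel of muscle, had 1.87, 0.963 and 1.90 CPM against 0.254, 0.407 and 0.521 CPM (unadjusted p = 0.00219, adjusted p = 0.0768, edgeR). In both genes control mouse 2 was the lowest control, as in the macrophage markers. Among aPU.1KO mice, mouse 1 had the highest marker sum, but *Ryr1* was lowest there and *Gatm* was highest in mouse 3. The part of macrophage RNA in both genes was not tested. *Slc6a8*, the creatine transporter, had 35.1 ± 6.05 and 26.0 ± 4.88 CPM with overlapping groups (log2 fold change -0.43, SE 0.18). Without aPU.1KO mouse 3, 5 of these genes were lower.

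Of 20 genes that carry adrenergic and thyroid hormone signals, 18 were tested, 2 were higher and none lower by unadjusted p (1 called higher by DESeq2), and the median log2 fold change was 0.11. These 2 of 18 are close to the share of higher genes among all tested. *Adrb3*, the adrenergic receptor of adipocytes, had 201.5, 330.2 and 145.4 CPM in controls and 564.4, 619.6 and 290.2 CPM in aPU.1KO mice. Control mouse 2 lay above aPU.1KO mouse 3, and the log2 fold change was 1.12 (SE 0.38, adjusted p = 0.131 by edgeR and 0.0223 by DESeq2). *Pde3b*, the phosphodiesterase through which insulin lowers cAMP, had 438.4 ± 98.6 and 665.1 ± 139.7 CPM (log2 fold change 0.60, SE 0.21). *Thra*, a thyroid hormone receptor, had 70.3 ± 7.14 and 83.6 ± 9.70 CPM (log2 fold change 0.25, SE 0.11, unadjusted p = 0.0647) and did not pass. The count of 2 was 0 without control mouse 1, aPU.1KO mouse 1 or aPU.1KO mouse 2, 1 without control mouse 3, and 4 without control mouse 2. The count of none lower became 1 in limma-voom, 1 with aPU.1KO mouse 1 left out and 2 with aPU.1KO mouse 2 left out.

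**Figure D5:**
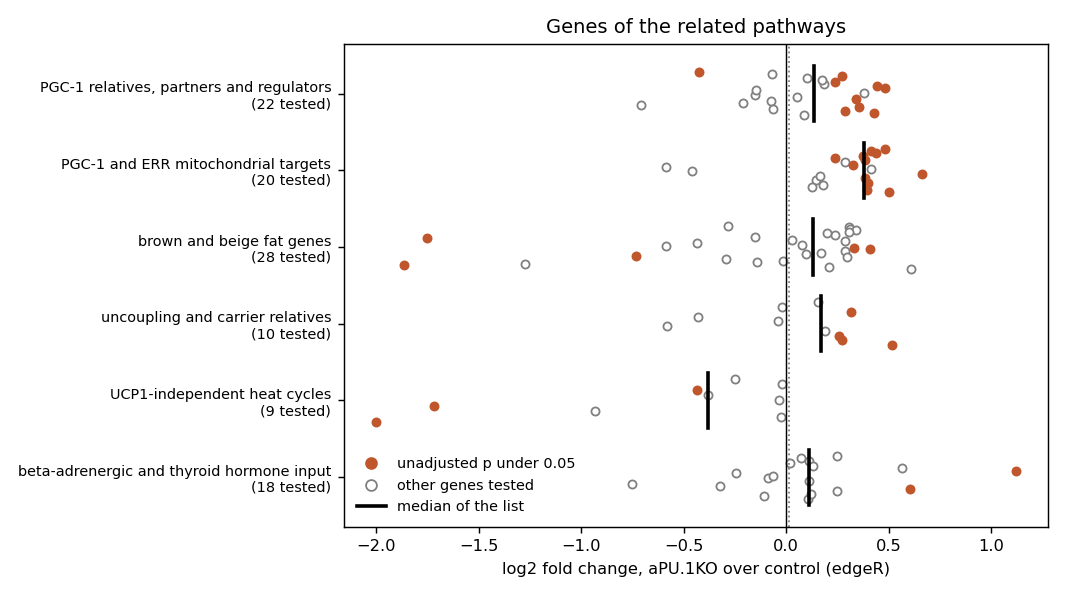
Log2 fold change of aPU.1KO over control mice (x axis) of each tested gene in 6 lists related to the members, filled where the unadjusted p was under 0.05, with a thick line at each list's median and a dotted line at the median of all genes tested. The 20 mitochondrial targets centre on 0.38, and all 9 genes of heat production without UCP1 lie under 0.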

How the data were processed

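RNA from 6 libraries (3 control, 3 aPU.1KO mice) was quantified by the authors with Salmon and added up per gene. The deposited values are these estimated counts, unnormalized whole numbers, for 35122 Ensembl genes. GRCm38 is the build in the submitters' processing notes, and the Salmon version and annotation release are not given in the sources used here. Symbols matched for 35031 genes. The groups come from the labels, which do not pair the mice. Here edgeR 4.0.16 (R 4.3.3; filterByExpr with a minimum count of 10, TMM factors, quasi-likelihood F-test, Benjamini-Hochberg adjustment over 13925 genes, threshold 0.05) was the main test, and CPM are TMM-scaled. DESeq2 1.42.0, limma 3.58.1 (voom), other factors and filters, control mouse 1 thinned to 23083210 counts, and leaving out each mouse were alternatives. *Ucp1* and *Elovl3* had exact permutation tests on log2 CPM (prior count 2, SciPy 1.17.1). Library totals of 20550252 to 69283842 set the counting error. The fits were tested on simulated counts with the same dispersion for every gene. Of 200 genes changed 4-fold, edgeR called 196, DESeq2 194 and limma-voom 196. Real genes differ in spread, so this does not show how the tools behave on these mice. Replicate pairs differed by at least 18.962 chi-square per degree of freedom, so no library was a copy of another.

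In each of the 6 pathway lists the 3 tested genes with the smallest p were named, as well as all members, and marker genes are named as examples chosen after their values were seen. *Otop1*, *Plin5* and others past the unadjusted threshold are counted only, *Esrrg* and *Slc27a2* were named after their values were seen, and 1 gene near *Ppargc1b* in pattern is not reported here. A gene listed as Gyk is an older symbol of *Gk* and was counted once. The members and lists were chosen with earlier results of these data known, and the cAMP response element was added after seeing the promoters. The p-values measure the spread between these mice.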

Additional observations from a re-analysis of the deposited data

How the results depend on the processing

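The number of genes called at an adjusted p under 0.05 was 33 with edgeR, and depended on the setting. It was 146 without a filter, 5 with at least 10 counts in every library, 1867 with DESeq2 and 19 with control mouse 1 thinned. With 1 mouse left out it ran from 0 to 1193, the highest without control mouse 2. Members called numbered 0 with all edgeR and limma-voom settings on 6 mice, 2 with DESeq2, and 0 to 1 with 1 mouse left out. Members at an unadjusted p under 0.05 numbered 2 to 5 with 1 mouse left out, 5 without control mouse 2, and 2 to 4 under the other settings. Of 103 member fold changes under alternatives, 1 reversed, that of *Cidea* (-0.21 without aPU.1KO mouse 1, in a range of -0.21 to 0.39), 3 came under the adjusted threshold, and 99 kept both direction and side. The causes were not tested. *Ucp1* was fitted under 6 of the alternatives, with log2 fold changes from -4.66 to -1.96 and adjusted p-values from 0.112 to 0.295. Counts per list under the same settings were chosen after seeing the data. The study used littermate controls, but the labels give neither shared replicate numbers nor the litter of each mouse, so no paired analysis was possible. With 3 mice a group, a common biological coefficient of variation of 0.194, and counts under 20 in most libraries, *Ucp1* and *Elovl3* are the least precisely measured.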

Other observations

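The remaining marker lists give the makeup of the fraction in which the members were measured. The 8 endothelial markers summed to between 555 and 807 CPM in controls and between 338 and 719 CPM in aPU.1KO mice, with 2 lower at an unadjusted p under 0.05, *Vwf* (log2 fold change -0.78, SE 0.16) and *Cdh5* (-0.61, SE 0.26). All 8 were lower without aPU.1KO mouse 2, and 1 was when control mouse 1 or 2 or aPU.1KO mouse 1 or 3 was left out. Lymphocyte markers were near the floor, with 3 of 10 tested and 1 lower, a count of 0 without control mouse 1 or aPU.1KO mouse 2, 2 without aPU.1KO mouse 1, 3 with control mouse 2 left out and 4 with aPU.1KO mouse 3 left out. Of 6 mesothelial markers 5 were tested and none passed, but 3 were lower when control mouse 3 was left out, and 1 when aPU.1KO mouse 2 was. Of 7 skeletal muscle markers 3 were tested and 1 was lower (0 without control mouse 3 or aPU.1KO mouse 3). They summed to between 36.4 and 131.0 CPM in aPU.1KO mice and between 39.8 and 52.0 CPM in controls. Under the other settings on all mice the counts lower ran from 2 to 4 (endothelial), 1 to 4 (lymphocyte) and 0 to 1 (muscle). None of the 11 immediate early genes passed in the main fit, and 0 to 2 were higher under the other settings on all mice. Of these genes 8 were higher without aPU.1KO mouse 3 and 1 was lower without aPU.1KO mouse 2. They summed to 6692 CPM in aPU.1KO mouse 2, in which *Ppargc1a* and *Esrra* were highest, against 2273 to 4316 CPM in the other 5 mice.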
